A study of Mus musculus with 41 samples.

Results

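Messenger RNA was measured in mouse kidneys that had been injured by closing and reopening their blood supply on one side, called unilateral ischemia-reperfusion injury (UIRI). The comparison described here is between kidneys taken on day 7 after UIRI whose uninjured partner had been removed in between (nephrectomy, Nx; UIRI+Nx d7, n = 4) and injured kidneys taken on day 3 with no nephrectomy in their label (UIRI d3, n = 6). It uses 10 of the 41 libraries of the series, chosen by their titles in the second of 2 cohorts, and covers all genes. Another group of the same cohort, injured kidneys taken on day 7 with no nephrectomy in their label (UIRI d7, n = 6), is given beside it where it helps to place a value. The title of each second-cohort library holds WT, taken to mean wild type, and its treatment tags read UIRI or UIRI+Nx with the day. Strain and genotype beyond WT are not given in the labels used here. Sex, age, ischemia time and the day of nephrectomy are described only for a design of 4 groups of 6 mice, the size of the first cohort, and there the mice were males of 8 to 10 weeks, the ischemia lasted 21 min at a core temperature of 34 °C, the nephrectomy fell on day 3, and the day 7 mice without nephrectomy had a sham operation. The main comparison therefore sets kidneys that differ in day after injury and in nephrectomy against each other, and the effects of the 2 cannot be told apart within it. Each library came from a section of the kidney pole, so it reads all cell types of that section together. In such bulk RNA, fewer cells of a type and less RNA per cell cannot be told apart.

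After ischemia the cells of the proximal tubule, the segment that reclaims most of the filtrate, lose their transport genes, and surviving cells dedifferentiate, enter the cell cycle and later redifferentiate. Macrophages and matrix-producing fibroblasts gather between the tubules in the same period, and cells that fail to redifferentiate keep an inflammatory pattern. Removing the other kidney leaves the injured one to carry all filtration and tubular transport.

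The 4 UIRI+Nx d7 libraries held 8593244 to 26290199 counts and the 6 UIRI d3 libraries 12431540 to 16018040. Total counts, genes detected at equal depth, the mitochondrial share and the share of the 50 most abundant genes did not differ beyond the spread between libraries (two-sided exact permutation tests, n = 4 and 6, adjusted p = 0.819 for each over 5 measures). The hemoglobin share was the exception, at 0.00391% of counts in UIRI+Nx d7 and 0.0472% in UIRI d3 (the same exact test, p = 0.00952, the smallest that 4 against 6 allow, adjusted p = 0.0476). The column names place replicates 1 and 2 of UIRI+Nx d7 and all UIRI d3 libraries on sample-sheet positions 1 to 10, and replicates 3 and 4 of UIRI+Nx d7 on positions 18 and 19. That split is an inference from the names, since the labels name no batch. UIRI d7 replicates 1 and 2 were on positions 3 and 4, and replicates 3 to 6 on positions 20 to 23. The second principal component, an axis of joint variation, held 18.4% of the variance between the cohort's libraries. On it UIRI+Nx d7 replicates 1 to 4 stood at -31.5, -27.95, 2.024 and 1.633. UIRI d7 replicates 1 and 2 stood at 12.87 and 7.23, and replicates 3 to 6 at 31.53 to 53.48. Why they differed was not tested. Kidney markers were present throughout, with Slc34a1 (1383, 1599, 1568 and 1975 CPM) and Umod (615, 605, 669 and 546 CPM) among the abundant transcripts of UIRI+Nx d7, where CPM is the usual depth-scaled count, here on the TMM-scaled library size, and the 4 values are those of replicates 1 to 4.

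Between UIRI+Nx d7 and UIRI d3, 935 of 15543 genes (6.02%) passed the edgeR quasi-likelihood test at a Benjamini-Hochberg adjusted p under 0.05. Of these 462 were higher in UIRI+Nx d7 (2.97% of genes tested) and 473 lower (3.04%), and 187 and 267 of them differed by more than 2-fold. The values of the 2 groups did not overlap at all for 1055 genes (6.79%), of which 692 were among the called ones. The median log2 fold change over all genes was 0.01. Leaving out UIRI+Nx d7 replicate 2, the deepest library of that group, brought the calls to 270 higher and 284 lower, and leaving out replicate 4 brought them to 296 and 319. Within sample-sheet positions 1 to 10 alone, where UIRI+Nx d7 keeps 2 libraries, 153 genes were called higher and 186 lower. Of the 124 called genes given values here, 124 kept their sign and 82 their call within those positions, and 106 kept the call with the split as a covariate. Mki67, Sox9, Egf, Fn1, Inhba and Fosl1 were among those that lost it within those positions (edgeR adjusted p 0.0849 to 0.153). Ccr2, Cdh6, Cfi, Cldn10, Clec10a, Cyp4a12b, D630011A20Rik, E2f7, Gsta4, Id1, Il24, Kl, Klk1, Kng2, Plekha1, Ptger3, Slc8a1 and Stfa2 were named after their values had been seen, and the other genes by the rule given with the methods. For genes named by fold change that rule asks for no overlap with UIRI d3, or with both UIRI d3 and UIRI d7. Their lack of overlap is therefore no finding. This covers Calb1, Slc38a3, Lyve1, Muc13, Dnase1, Slc7a13, Cyp27b1, Cyp2d12 and Hsd3b2, among others.

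**Figure D1:**
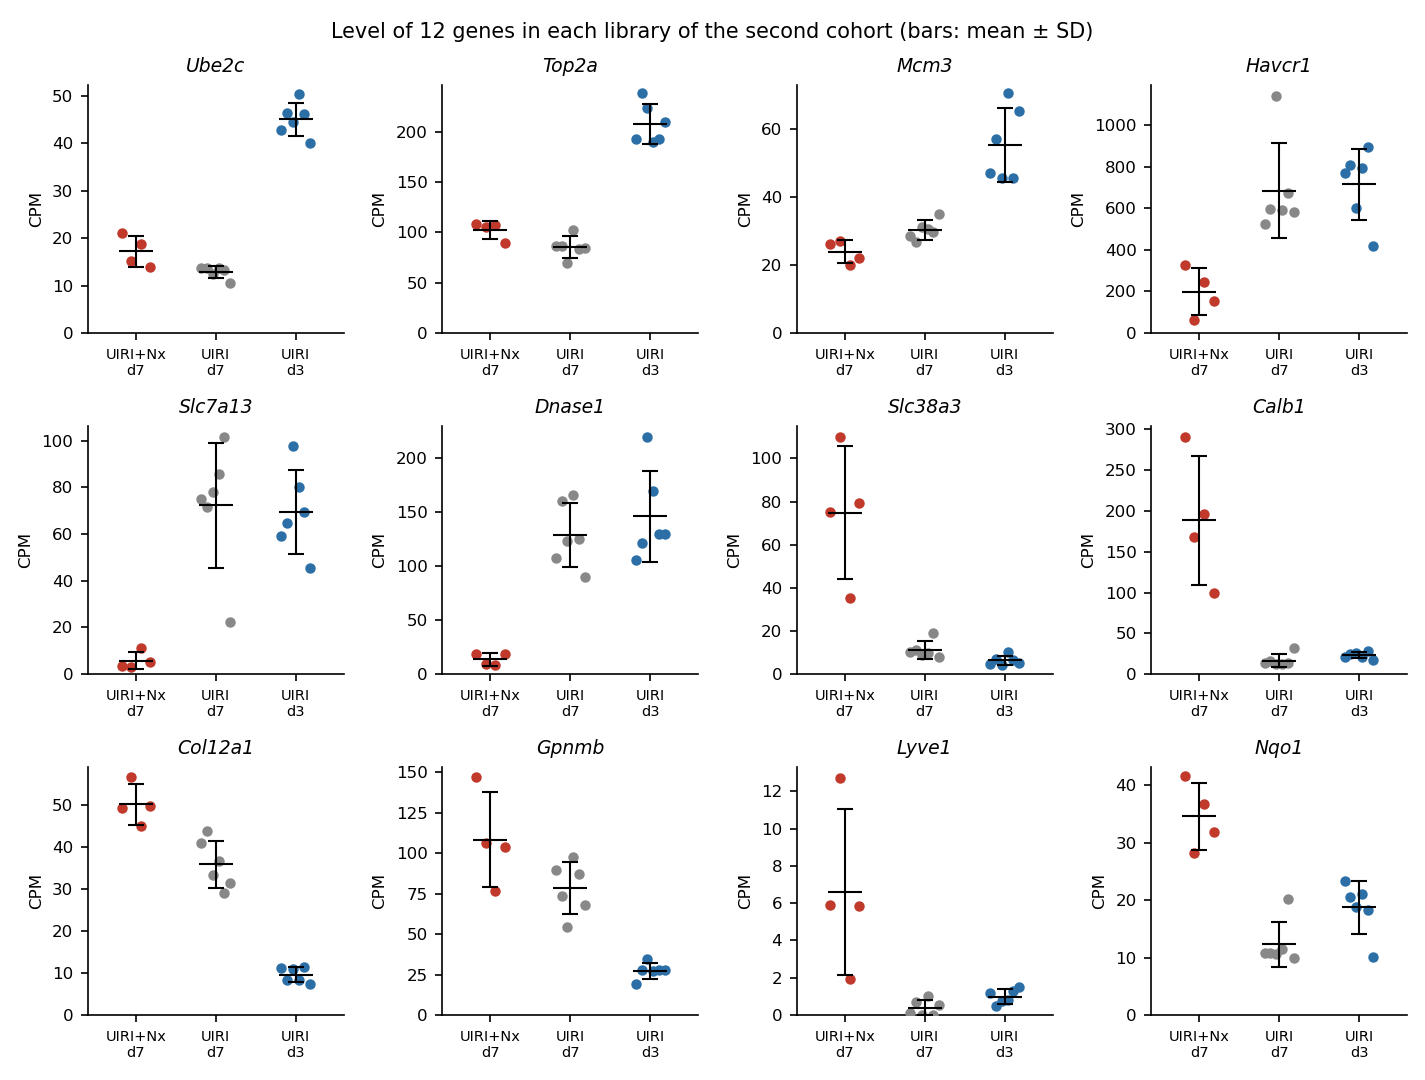
Level of 12 genes in every library of the second cohort, in CPM on a linear axis from 0; points are libraries and bars the mean ± SD (n = 4 UIRI+Nx d7, 6 UIRI d7, 6 UIRI d3). Ube2c, Top2a and Mcm3 sit low in both day 7 groups, whereas Dnase1 and Slc7a13 are low and Calb1 and Slc38a3 high in the 4 UIRI+Nx d7 libraries, apart from both other groups. Dnase1, Slc7a13, Calb1 and Slc38a3 all met a naming rule that asks for that separation.

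Genes of cell division were lower in UIRI+Nx d7 than in UIRI d3. Of 59 genes of G2 and mitosis, all tested, 41 fell and none rose, with a median log2 fold change of -1.02, against 3.04% of all genes called lower. Of 46 genes of DNA replication and S phase 17 fell and none rose (median -0.74), and the log2 fold change was below 0 for all 46. Ube2c (ENSMUSG00000001403), the ubiquitin-conjugating enzyme that the anaphase-promoting complex uses to end mitosis, had 21.1, 15.1, 18.8 and 13.8 CPM in UIRI+Nx d7, against 39.9 to 50.3 (median 45.3) CPM in UIRI d3. Every UIRI+Nx d7 library lay below every UIRI d3 library (edgeR log2 fold change -1.39 ± 0.14 SE, adjusted p = 5.15e-06). Top2a (ENSMUSG00000020914), the topoisomerase that untangles replicated chromosomes, had 109, 105, 107 and 89.5 CPM in UIRI+Nx d7 and 189 to 238 (median 201) CPM in UIRI d3. The groups again did not overlap (edgeR log2 fold change -1.02 ± 0.12 SE, adjusted p = 5.08e-05). Foxm1, the transcription factor that drives genes of G2 and mitosis, fell by 1.20 on the log2 scale to 10.9 ± 1.52 CPM in UIRI+Nx d7, against 25 ± 1.67 CPM in UIRI d3 (mean ± SD, n = 4 and 6 here and below, edgeR adjusted p = 0.000113). Tpx2, which builds the spindle, fell by 1.17 and Mki67, the proliferation marker, by 0.99 (edgeR adjusted p = 0.000173 and 0.00226).

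In the replication genes the called members covered the steps from licensing to nucleotide supply. Mcm3 (ENSMUSG00000041859), a subunit of the replicative helicase, had 26.3, 27.2, 20.1 and 22.2 CPM in UIRI+Nx d7 and 45.6 to 70.7 (median 52.3) CPM in UIRI d3 (edgeR log2 fold change -1.21 ± 0.15 SE, adjusted p = 7.78e-05). Every UIRI+Nx d7 library lay below every UIRI d3 library. Cdt1, which loads that helicase, stood at 26.8, 24.3, 23.3 and 25.7 CPM in UIRI+Nx d7 and at 41.1 to 55 (median 47.1) CPM in UIRI d3 (edgeR log2 fold change -0.93 ± 0.15 SE, adjusted p = 0.000469). Rrm2, the regulated subunit of ribonucleotide reductase, fell by 1.47 on the log2 scale (SE 0.18, edgeR adjusted p = 5.49e-05). The counts of both lists held their direction when any single library was left out, with 30 to 47 genes of G2 and mitosis and 12 to 23 of S phase called lower. With 2 UIRI+Nx d7 libraries on positions 1 to 10 the counts were 15 and 4, at medians of -0.96 and -0.59.

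The promoters of these genes carry 2 known cell cycle elements, which were looked for in the 300 bases from 250 before to 50 after the RefSeq start (GRCm38.p6). They are shown because the 2 lists, which fell together, differ in these elements. The cell cycle homology region (CHR), with the letters TTTGAA, is known as a binding site of the DREAM and MuvB complexes on genes of G2 and mitosis. It was found on either strand in 76.0% of 50 matched genes of that list and in 86.1% of its 36 called and matched genes, against 20.2% of all 27025 genes with a promoter in the table and 14.6% of 11246 tested ones. In the S phase list 15.8% of 38 matched genes held it. The element GCGGGAA, an E2F site known from replication genes, was in 39.5% of the S phase list and 4.0% of the G2 and mitosis list, against 5.29% of all genes and 9.46% of tested ones. The letters CCAAT, which often stand near a CHR, were in 74.0% of the G2 and mitosis list, 63.2% of the S phase list and 41.1% of all genes, so both lists held them often. The motifs do not overlap in their letters, and a match is a description of the sequence, not evidence of binding. The 3 genes of G2 and mitosis and 2 of S phase with the smallest p among those named by rule and carrying the element are given from 5′ to 3′ on the gene's own strand, with the CHR (or its reverse complement) in capitals in the first 3 and the E2F element in capitals in the last 2.
Ube2c promoter, chr2:164769679-164769978, plus strand: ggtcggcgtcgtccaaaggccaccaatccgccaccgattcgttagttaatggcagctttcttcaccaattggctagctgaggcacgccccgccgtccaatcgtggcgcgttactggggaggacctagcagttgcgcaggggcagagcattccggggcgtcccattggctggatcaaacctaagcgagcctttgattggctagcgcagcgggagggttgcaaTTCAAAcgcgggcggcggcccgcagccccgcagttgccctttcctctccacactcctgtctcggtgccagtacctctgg
Top2a promoter, chr11:99024140-99024439, minus strand: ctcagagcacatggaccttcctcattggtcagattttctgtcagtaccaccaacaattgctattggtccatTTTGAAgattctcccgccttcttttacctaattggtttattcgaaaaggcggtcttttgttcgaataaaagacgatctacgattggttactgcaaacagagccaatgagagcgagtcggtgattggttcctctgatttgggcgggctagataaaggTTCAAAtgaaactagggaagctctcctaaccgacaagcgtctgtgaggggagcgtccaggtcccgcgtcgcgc
Mki67 promoter, chr7:135716330-135716629, minus strand: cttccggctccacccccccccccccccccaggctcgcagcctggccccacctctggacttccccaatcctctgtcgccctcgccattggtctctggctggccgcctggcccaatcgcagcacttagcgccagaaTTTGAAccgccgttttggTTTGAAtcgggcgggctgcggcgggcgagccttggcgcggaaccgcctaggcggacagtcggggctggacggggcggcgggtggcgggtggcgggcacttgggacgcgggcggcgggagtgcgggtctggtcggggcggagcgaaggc
Mcm3 promoter, chr1:20820263-20820562, minus strand: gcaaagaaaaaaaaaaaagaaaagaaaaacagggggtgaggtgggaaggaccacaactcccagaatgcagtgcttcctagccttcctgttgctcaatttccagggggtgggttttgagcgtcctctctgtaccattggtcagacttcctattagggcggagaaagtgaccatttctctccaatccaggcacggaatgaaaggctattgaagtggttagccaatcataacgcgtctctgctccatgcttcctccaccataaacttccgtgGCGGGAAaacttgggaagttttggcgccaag
Cdt1 promoter, chr8:122567765-122568064, plus strand: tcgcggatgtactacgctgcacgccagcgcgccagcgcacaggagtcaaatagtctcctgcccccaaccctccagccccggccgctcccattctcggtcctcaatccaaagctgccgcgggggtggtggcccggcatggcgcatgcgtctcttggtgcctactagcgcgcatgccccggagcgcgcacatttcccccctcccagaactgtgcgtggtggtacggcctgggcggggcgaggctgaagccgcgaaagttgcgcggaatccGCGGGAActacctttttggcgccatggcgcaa
In Ube2c the CHR starts 29 bases before the RefSeq start, in Top2a a pair of them starts 179 and 23 bases before it, and in Mki67 116 and 98 bases before it. In Mcm3 the E2F element starts 19 bases after the start and in Cdt1 18 bases after it.

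The summed level of the genes of G2 and mitosis was low in both day 7 groups, at 1130.0 to 1377 CPM in UIRI+Nx d7 and 964 to 1134 CPM in UIRI d7, against 1862 to 2295 CPM in UIRI d3. For a few of these genes UIRI+Nx d7 was above UIRI d7. Mki67 had 16, 23.5, 14.6 and 13.6 CPM in UIRI+Nx d7 and 7.86 to 11.8 (median 10.1) CPM in UIRI d7 (edgeR log2 fold change 0.74 ± 0.18 SE, adjusted p = 0.0206), while UIRI d3 held 27.6 to 43.1 (median 31.8) CPM. Its levels therefore ran UIRI+Nx d7 above UIRI d7 and below UIRI d3 without overlap between any 2 of the groups. The Mki67 call against UIRI d3 was lost within positions 1 to 10 (edgeR adjusted p = 0.122). Of the 59 mitotic genes 7 were higher in UIRI+Nx d7 than in UIRI d7 and none lower, against 2.58% and 2.66% of all genes, and no S phase gene was called. Among regulators of the endocycle, the replication without division that makes cells polyploid, 5 of 25 were lower in UIRI+Nx d7 than in UIRI d3 and none higher, against 3.04% and 2.97% of all genes. With the sample-sheet split as a covariate, and within positions 1 to 10, 1 of them was called. Ccne1, cyclin E1, fell by 1.52 on the log2 scale (SE 0.29, edgeR adjusted p = 0.00302), with 2.59, 1.28, 3.1 and 1.87 CPM in UIRI+Nx d7 and 4.2 to 7.59 (median 6.43) CPM in UIRI d3. The 4 other calls were E2f2, an activating E2F (-1.09), the atypical repressors E2f7 and E2f8 (-0.92 and -1.23) and the kinase inhibitor Cdkn1c (-0.95), as log2 fold changes. Each of these calls was lost on leaving out 1 library. For E2f2 this was without UIRI+Nx d7 replicate 3 or 4 or UIRI d3 replicate 2 (edgeR adjusted p 0.0523 to 0.0817). For E2f7 it was without UIRI+Nx d7 replicate 2 or 4 or UIRI d3 replicate 1, 2, 4, 5 or 6 (edgeR adjusted p 0.0559 to 0.145), for E2f8 without UIRI+Nx d7 replicate 2, 3 or 4 or UIRI d3 replicate 4 or 5 (edgeR adjusted p 0.0595 to 0.108), and for Cdkn1c without UIRI+Nx d7 replicate 2, 3 or 4 or UIRI d3 replicate 1 (edgeR adjusted p 0.0582 to 0.0941). Cdkn1a, the p53-driven inhibitor p21, did not pass the test against UIRI d3 (edgeR log2 fold change 0.38, adjusted p = 0.2). It was 126, 169, 115 and 154 CPM in UIRI+Nx d7 and 59.1 to 102 (median 83.9) CPM in UIRI d7, and that difference passed the test (edgeR log2 fold change 0.76 ± 0.17 SE, adjusted p = 0.0103).

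**Figure D2:**
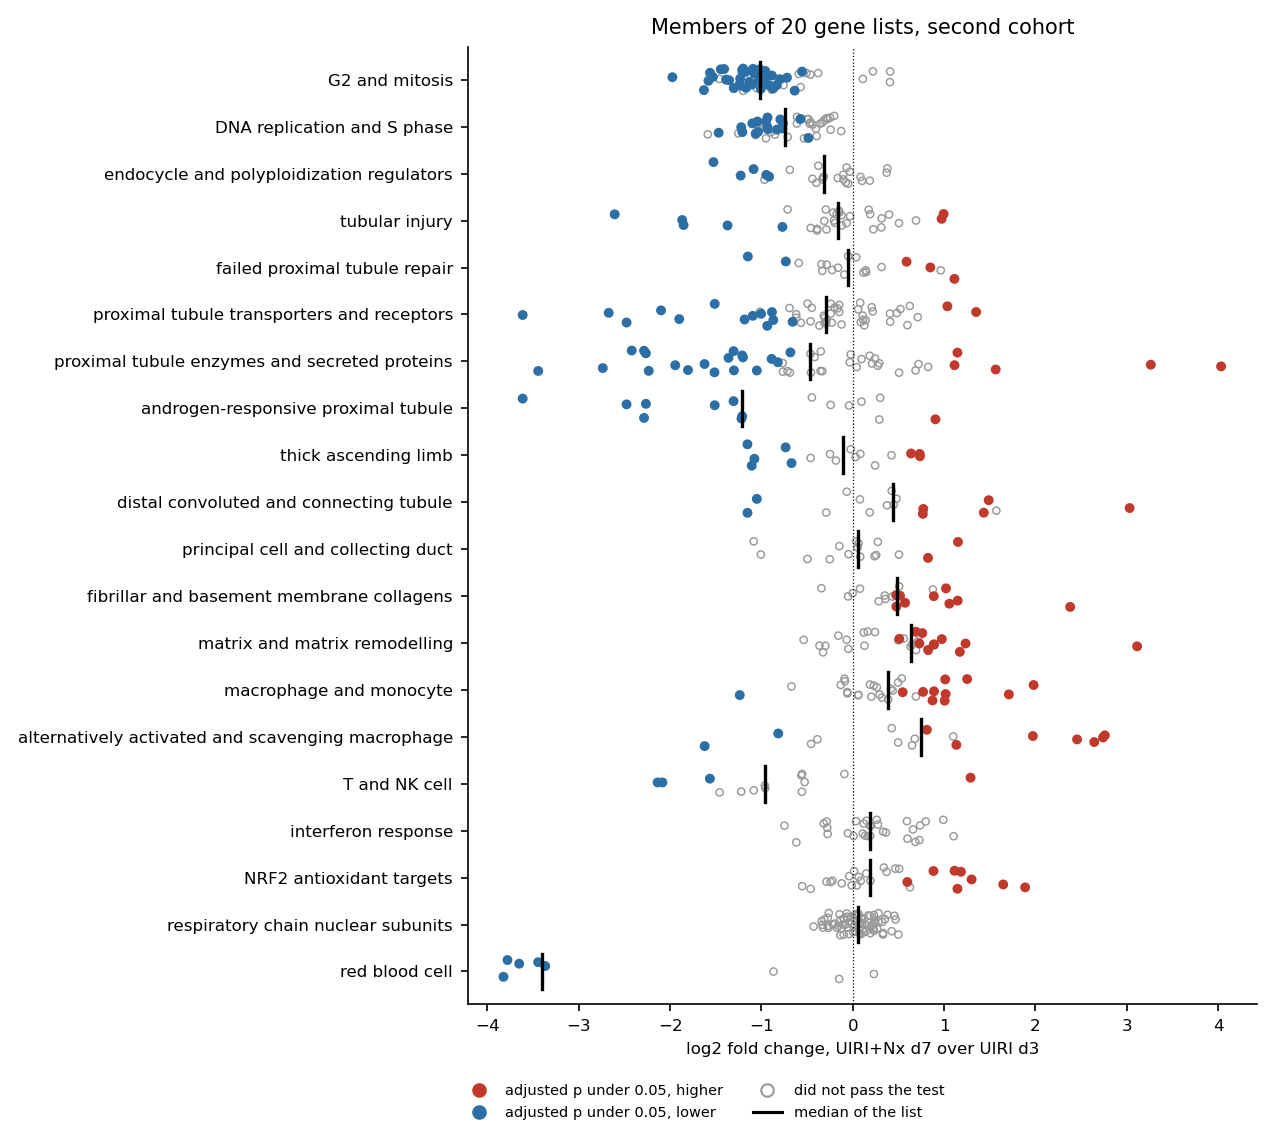
Log2 fold change of UIRI+Nx d7 over UIRI d3 for each tested member of 20 gene lists; filled points passed the edgeR test at adjusted p under 0.05, open points did not, and bars are list medians. Mitotic and red blood cell genes lie to the left (medians -1.02 and -3.41), collagens, matrix and macrophage genes to the right, and the 74 respiratory chain genes around 0 with none called.

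Injury markers of the tubule held more genes lower than higher in UIRI+Nx d7 against UIRI d3, though not against UIRI d7. Of 32 genes 5 were lower and 2 higher than in UIRI d3, against 3.04% and 2.97% of all genes. The log2 fold change was below 0 for 22 of the 32, with a median of -0.16, and their summed level was 10440.0 to 11990.0 CPM in UIRI+Nx d7, against 12630.0 to 16610.0 CPM in UIRI d3, without overlap. Within positions 1 to 10, 2 were lower and 2 higher. Against UIRI d7, which summed to 8643 to 11700 CPM, 5 of the 32 were higher in UIRI+Nx d7 and 3 lower (median log2 fold change 0.18). Of all genes 2.58% were higher and 2.66% lower in that comparison. Havcr1 (ENSMUSG00000040405), which encodes the phosphatidylserine receptor KIM-1 of injured proximal tubule cells, had 328, 64.9, 244 and 156 CPM in UIRI+Nx d7, 523 to 1141 (median 594) CPM in UIRI d7 and 420.3 to 892 (median 781) CPM in UIRI d3. All 4 UIRI+Nx d7 libraries lay below both other groups, which overlapped each other (edgeR log2 fold change -1.85 ± 0.34 SE, adjusted p = 0.00217 against UIRI d3, and edgeR log2 fold change -1.79 ± 0.34 SE, adjusted p = 0.00372 against UIRI d7). With 2 UIRI+Nx d7 libraries on positions 1 to 10 the call against UIRI d3 was lost (log2 fold change -1.87, edgeR adjusted p = 0.099). Sprr1a, a cornified envelope protein made by stressed epithelium, had 30.8, 29.6, 38 and 26.6 CPM in UIRI+Nx d7 and 118 to 275 (median 177) CPM in UIRI d3 (edgeR log2 fold change -2.61 ± 0.24 SE, adjusted p = 1.22e-06). S100a6, a calcium-binding protein of proliferating cells, averaged 1507 ± 312 CPM in UIRI+Nx d7 and 3898 ± 587 CPM in UIRI d3 (edgeR log2 fold change -1.37, adjusted p = 3.34e-05). The small heat shock protein Cryab fell by 0.77 and the cytokine Il24 by 1.87 on the log2 scale. Lcn2 moved the other way. This iron-siderophore binding protein, known as NGAL and made by distal tubules and neutrophils, had 269, 397, 225 and 382 CPM in UIRI+Nx d7, 105 to 262 (median 136) CPM in UIRI d7 and 141 to 186 (median 161) CPM in UIRI d3 (edgeR log2 fold change 0.97 ± 0.22 SE, adjusted p = 0.00902). The lowest UIRI+Nx d7 library lay above every UIRI d3 library. Cdh6, a cadherin of the developing proximal tubule, also rose to 11.3 ± 3.47 CPM in UIRI+Nx d7, against 5.66 ± 1.33 CPM in UIRI d3. The call of Cdh6 was lost without UIRI+Nx d7 replicate 2 or 4 or UIRI d3 replicate 1 or 5 (edgeR adjusted p 0.0581 to 0.109) and that of Il24 without UIRI+Nx d7 replicate 1, 2, 3 or 4 or UIRI d3 replicate 1, 2 or 4 (edgeR adjusted p 0.0521 to 0.0731).

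Sox9 (ENSMUSG00000000567), a transcription factor switched on in regenerating tubule cells, was the only called gene of 18 tested progenitor and regeneration factors. That count is near the 6.02% of all genes called. It had 368, 319, 444 and 340.4 CPM in UIRI+Nx d7 and 128 to 252 (median 207) CPM in UIRI d3, without overlap (edgeR log2 fold change 0.86 ± 0.20 SE, adjusted p = 0.0113). UIRI d7 spanned 202 to 408 (median 244) CPM, and UIRI+Nx d7 did not pass the test against it (edgeR log2 fold change 0.43, adjusted p = 0.246). In the list of failed proximal tubule repair, 3 of 19 tested members rose and 2 fell, against 2.97% and 3.04% of all genes. The scaffold protein Akap12 rose to 395 ± 50.2 CPM in UIRI+Nx d7, against 183 ± 34.6 CPM in UIRI d3 (edgeR log2 fold change 1.11 ± 0.16 SE, adjusted p = 0.000205), and the ferroxidase Cp to 288 ± 45.5 CPM in UIRI+Nx d7, against 159.7 ± 35.5 CPM in UIRI d3 (edgeR log2 fold change 0.85, adjusted p = 0.00365). The calls of Plekha1, higher by 0.59 on the log2 scale, and of the NF-kappa-B genes Traf1 (-1.15) and Nfkb2 (-0.73) were near the threshold. The call of Plekha1 was lost without UIRI+Nx d7 replicate 1, 2 or 4 or UIRI d3 replicate 1, 2, 4 or 5 (edgeR adjusted p 0.0549 to 0.199), that of Traf1 without UIRI+Nx d7 replicate 2, 3 or 4 or UIRI d3 replicate 3 (edgeR adjusted p 0.0674 to 0.127), and that of Nfkb2 without UIRI+Nx d7 replicate 1, 2 or 3 or UIRI d3 replicate 1, 2, 3 or 6 (edgeR adjusted p 0.0648 to 0.0992). Vcam1, an adhesion molecule of tubule cells that do not recover, had 207, 144, 560.2 and 283 CPM in UIRI+Nx d7, a median of 699 CPM in UIRI d7 and 279 to 439 (median 372) CPM in UIRI d3. UIRI+Nx d7 replicate 3 was the highest of its group for Vcam1, and without it the difference from UIRI d3 passed the test (log2 fold change -0.79, edgeR adjusted p = 0.0331), whereas with all 4 libraries it did not (edgeR log2 fold change -0.28, adjusted p = 0.602). Against UIRI d7 Vcam1 was lower with all 4 (edgeR log2 fold change -1.23 ± 0.27 SE, adjusted p = 0.0115). Of the 19 repair genes 8 were lower in UIRI+Nx d7 than in UIRI d7 and none higher, against 2.66% of all genes called lower.

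Proximal tubule genes were lower on balance, with clear exceptions. Of 53 transporters and receptors 13 were lower and 2 higher in UIRI+Nx d7 than in UIRI d3 (median log2 fold change -0.29), and of 47 tested enzymes and secreted proteins 19 were lower and 5 higher (median -0.46, or -0.75 without UIRI+Nx d7 replicate 1). Of all genes 3.04% were lower and 2.97% higher, so the 2 higher transporters are near that share. Leaving out any single library left 12 to 15 and 15 to 19 called lower. Dnase1 (ENSMUSG00000005980), the secreted nuclease of the urine, had 18.5, 8.94, 8.21 and 18.8 CPM in UIRI+Nx d7, 90.0 to 165 (median 124) CPM in UIRI d7 and 105 to 219 (median 129.7) CPM in UIRI d3 (edgeR log2 fold change -3.44 ± 0.29 SE, adjusted p = 5.29e-07). Slc7a13 (ENSMUSG00000041052), an amino acid transporter of the last proximal segment, had 3.53, 2.87, 11 and 5.36 CPM in UIRI+Nx d7, 22.1 to 102 (median 76.4) CPM in UIRI d7 and 45.6 to 97.9 (median 67.1) CPM in UIRI d3 (edgeR log2 fold change -3.61 ± 0.41 SE, adjusted p = 2.22e-05). For both genes the UIRI d7 and UIRI d3 libraries overlapped and the UIRI+Nx d7 libraries stood below them. Kap, the androgen-regulated protein that is among the most abundant messages of the male proximal tubule, averaged 2525 ± 604 CPM in UIRI+Nx d7 and 12305 ± 1932 CPM in UIRI d3 (edgeR log2 fold change -2.29 ± 0.29 SE, adjusted p = 7.78e-05). Slc34a1, the phosphate cotransporter NaPi-IIa, fell by 0.94 on the log2 scale, Slc34a3, its relative NaPi-IIc, by 1.90 and Lrp2, the endocytic receptor megalin, by 1.09 (edgeR adjusted p = 0.0045, 0.00126 and 0.00702). The Lrp2 call was lost within positions 1 to 10 (edgeR adjusted p = 0.0938).

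Androgen-responsive genes, which give the male mouse proximal tubule part of its own expression pattern, were lower as well. Of 15 androgen-responsive genes 8 were lower and 1 higher in UIRI+Nx d7 than in UIRI d3, against 3.04% and 2.97% of all genes. Their median log2 fold change was -1.21, and 7 to 8 were called lower when any single library was left out. Their summed level was 2763 to 4156 CPM in UIRI+Nx d7, against 11530 to 16950 CPM in UIRI d3, most of it Kap. The gene that rose was the arachidonic acid hydroxylase Cyp4a12b (log2 fold change 0.91). Further genes that fell follow, and they include the list members Acsm3 and Timd2. Cyp2d12, a cytochrome P450, had 0.519, 0.998, 0.444 and 1.5 CPM in UIRI+Nx d7 and 7.36 to 16.9 (median 12.9) CPM in UIRI d3 (edgeR log2 fold change -3.91 ± 0.38 SE, adjusted p = 2.37e-06). Hsd3b2, a hydroxysteroid dehydrogenase, had 0.83, 1.32, 2.14 and 0.749 CPM in UIRI+Nx d7 and 13.9 to 20.4 (median 16) CPM in UIRI d3 (edgeR log2 fold change -3.63 ± 0.33 SE, adjusted p = 1.22e-06). Neither gene overlapped between the groups, which was a condition for naming them. Slc22a22, a prostaglandin transporter, fell by 3.37, the organic anion carriers Slc22a30 and Slc22a28 by 2.48 and 2.67, the acyl-CoA synthetase Acsm3 by 2.26, the ferritin receptor Timd2 by 1.22 and the methyltransferase Inmt by 2.42 on the log2 scale. Car4, the membrane-bound carbonic anhydrase, fell to 10.2 ± 6.59 CPM in UIRI+Nx d7, against 74.3 ± 8.65 CPM in UIRI d3 (edgeR log2 fold change -2.87 ± 0.33 SE, adjusted p = 2.77e-05). Pzp, a protease inhibitor of the alpha-macroglobulin family, fell by 3.25 on the log2 scale (edgeR adjusted p = 0.000342).

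The proximal tubule genes that rose included Slc13a2, Cyp27b1, Cyp4a14 and the glutathione transferases Gsta2 and Gstm1 from the lists of transporters and enzymes. Slc38a3 (ENSMUSG00000010064), the basolateral glutamine transporter SNAT3 that feeds ammonia production, is in neither list and had 75.2, 110.0, 35.2 and 79.2 CPM in UIRI+Nx d7, 7.67 to 19.1 (median 9.87) CPM in UIRI d7 and 4.38 to 10.1 (median 5.92) CPM in UIRI d3 (edgeR log2 fold change 3.57 ± 0.29 SE, adjusted p = 4.75e-07). Each of the 4 libraries lay above every library of both other groups. Cyp27b1, the 1-alpha-hydroxylase that activates vitamin D, had 19.7, 1.28, 7.84 and 1.87 CPM in UIRI+Nx d7 and 0 to 1.1 (median 0.369) CPM in UIRI d3 (edgeR log2 fold change 4.03 ± 0.75 SE, adjusted p = 0.00244). The groups did not overlap, as naming by fold change requires, but replicates 2 and 4 were close to the UIRI d3 libraries and replicate 1 was far above. Cyp4a14, a fatty acid omega-hydroxylase and target of PPAR-alpha, had 496, 1155, 152 and 752 CPM in UIRI+Nx d7 and 49.5 to 129.7 (median 54.4) CPM in UIRI d3 (edgeR log2 fold change 3.26 ± 0.51 SE, adjusted p = 0.00051). Ppara itself had 116, 167, 78.4 and 104 CPM in UIRI+Nx d7 and 31.3 to 80.1 (median 44.4) CPM in UIRI d3, with replicate 3 below the highest UIRI d3 library (edgeR log2 fold change 1.27 ± 0.25 SE, adjusted p = 0.00403). Slc13a2, the citrate transporter NaDC1, rose to 103 ± 23.1 CPM in UIRI+Nx d7, against 40.5 ± 6.98 CPM in UIRI d3 (edgeR log2 fold change 1.35 ± 0.19 SE, adjusted p = 0.00018). Hnf4a, a master regulator of the segment, was lower by 0.63 (edgeR adjusted p = 0.0248), and the call was lost without UIRI+Nx d7 replicate 2, 3 or 4 (edgeR adjusted p 0.0656 to 0.09). It and Ppara were the only called members of 17 tested proximal tubule transcription factors, against 6.02% of all genes called.

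The metabolic lists held no called gene against day 3. None of 38 tested genes of fatty acid oxidation, 74 nuclear respiratory chain subunits, 8 mitochondrial transcripts, 21 genes of the tricarboxylic acid cycle, 24 of glycolysis and 30 of cholesterol and lipid synthesis passed the edgeR test between UIRI+Nx d7 and UIRI d3, against 6.02% of all genes. Of these 195 genes 24 had an unadjusted p under 0.05 and DESeq2 called 5. Their median log2 fold changes were 0.08, 0.06, -0.21, -0.07, 0.05 and -0.03. Against UIRI d7, 5 genes of fatty acid oxidation, 3 of cholesterol and lipid synthesis and 3 of the 74 respiratory chain subunits were higher in UIRI+Nx d7 and 1 gene of glycolysis lower, where 2.58% of all genes were called higher and 2.66% lower.

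Distal segments held a set of genes that rose. Calb1 (ENSMUSG00000028222), calbindin-D28k, the calcium buffer of the distal convoluted and connecting tubule, had 291, 168, 196 and 98.8 CPM in UIRI+Nx d7, 11.8 to 31.6 (median 13.7) CPM in UIRI d7 and 17.7 to 28 (median 23.2) CPM in UIRI d3. All 4 UIRI+Nx d7 libraries lay above every library of both other groups (edgeR log2 fold change 3.03 ± 0.27 SE, adjusted p = 8.91e-07). S100g, the related calcium buffer calbindin-D9k, had 559, 596, 509 and 1047 CPM in UIRI+Nx d7 and 206 to 289 (median 256) CPM in UIRI d3 (edgeR log2 fold change 1.44 ± 0.22 SE, adjusted p = 0.000452). Wnk4, a kinase that controls salt transport there, rose by 0.77 on the log2 scale (edgeR adjusted p = 0.00686). Of 16 tested genes of these segments 5 rose and 2 fell, against 2.97% and 3.04% of all genes. The further rises were those of the sodium-calcium exchanger Slc8a1 (1.49) and the kallikrein Klk1 (0.77), and the genes that fell were Egf and Kl, the FGF23 co-receptor Klotho (-1.05). The call of Slc8a1 was lost without UIRI+Nx d7 replicate 1 or 2 or UIRI d3 replicate 2, 3 or 5 (edgeR adjusted p 0.0503 to 0.0814), that of Klk1 without UIRI+Nx d7 replicate 2 or 4 or UIRI d3 replicate 1, 2, 4 or 5 (edgeR adjusted p 0.0561 to 0.167), and that of Kl without UIRI+Nx d7 replicate 2 or 4 (edgeR adjusted p 0.0778 to 0.0836). Scnn1a, the alpha subunit of the epithelial sodium channel, had 36.1, 68.2, 43.4 and 49 CPM in UIRI+Nx d7 and 18.7 to 24.7 (median 22.9) CPM in UIRI d3 (edgeR log2 fold change 1.15 ± 0.22 SE, adjusted p = 0.00339). It was called higher with Kcne1, a potassium channel subunit (0.82), among 16 principal cell and collecting duct genes, against 2.97% of all genes. The call of Kcne1 was lost without UIRI+Nx d7 replicate 1, 2 or 3 or UIRI d3 replicate 1, 2, 5 or 6 (edgeR adjusted p 0.0558 to 0.139). Aqp2, the water channel of principal cells, overlapped between UIRI+Nx d7 (244, 255, 209 and 220.5 CPM) and UIRI d3 (157 to 412 (median 270.3) CPM; edgeR log2 fold change -0.25, adjusted p = 0.693), while UIRI d7 held 46.8 to 135 (median 71.6) CPM (edgeR adjusted p = 0.00401). Intercalated cells had 3 of 16 genes higher, against 2.97% of all genes. These were the proton pump subunits Atp6v0a4 and Atp6v0d2 and the ammonia channel Rhbg (0.89, 0.70 and 0.88). The call of Atp6v0a4 was lost without UIRI+Nx d7 replicate 2 (edgeR adjusted p = 0.0589), that of Atp6v0d2 without UIRI+Nx d7 replicate 2 (edgeR adjusted p = 0.0722), and that of Rhbg without UIRI+Nx d7 replicate 2 or 4 or UIRI d3 replicate 2 (edgeR adjusted p 0.0635 to 0.116).

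In the thick ascending limb 5 of 16 genes were lower and 3 higher, against 3.04% and 2.97% of all genes. The counts were 3 and 0 within positions 1 to 10, and 4 and 1 with the split as a covariate. Umod (ENSMUSG00000030963), uromodulin, the most abundant protein of normal urine, had 615, 605, 669 and 546 CPM in UIRI+Nx d7, 626 to 925 (median 727) CPM in UIRI d7 and 1155 to 1497 (median 1264) CPM in UIRI d3 (edgeR log2 fold change -1.08 ± 0.13 SE, adjusted p = 6.24e-05). Both day 7 groups were below every UIRI d3 library. Egf, the epidermal growth factor precursor of the distal nephron, had 18.1, 8.1, 15.3 and 5.61 CPM in UIRI+Nx d7 and 16.2 to 29.7 (median 27.5) CPM in UIRI d3 (edgeR log2 fold change -1.15 ± 0.26 SE, adjusted p = 0.00947), and the groups overlapped through 1 UIRI d3 library. Ppp1r1a, an inhibitor of protein phosphatase 1, and Wfdc15b fell by 0.73 and 1.11 on the log2 scale, and the claudin Cldn10 by 0.67. Those that rose included the prostaglandin receptor Ptger3 (0.64) and the kininogen Kng2 (0.74). The call of Cldn10 was lost without UIRI+Nx d7 replicate 2 or 4 or UIRI d3 replicate 1, 2, 3, 4 or 5 (edgeR adjusted p 0.0772 to 0.191), that of Ptger3 without UIRI+Nx d7 replicate 3 or 4 or UIRI d3 replicate 3, 4 or 5 (edgeR adjusted p 0.0548 to 0.0916), and that of Kng2 without UIRI+Nx d7 replicate 2 or 4 or UIRI d3 replicate 3, 4 or 5 (edgeR adjusted p 0.0526 to 0.123).

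Matrix genes were higher in UIRI+Nx d7. Of 20 collagen genes 9 rose and none fell (median log2 fold change 0.48), and of 30 genes of other matrix and its remodelling 11 rose and none fell (median 0.64), against 2.97% of all genes called higher. Within positions 1 to 10 the counts were 4 and 7. Summed collagen CPM were 3575 to 3899 in UIRI+Nx d7 and 2570 to 2879 in UIRI d3, so the groups did not overlap. Col12a1 (ENSMUSG00000032332), a collagen that decorates fibrils, had 49.3, 56.7, 44.9 and 49.7 CPM in UIRI+Nx d7, 29 to 43.7 (median 35) CPM in UIRI d7 and 7.42 to 11.5 (median 9.64) CPM in UIRI d3. Its day 7 libraries lay far above day 3, and the 2 day 7 groups were not told apart by the test (edgeR log2 fold change 2.38 ± 0.15 SE, adjusted p = 1.89e-08 against UIRI d3, edgeR adjusted p = 0.0722 against UIRI d7). Col1a1, the main fibrillar collagen chain, had 636, 685, 674 and 580.3 CPM in UIRI+Nx d7 and 298 to 402 (median 347) CPM in UIRI d3 (edgeR log2 fold change 0.89 ± 0.12 SE, adjusted p = 0.000106). Col5a2 and Col16a1 rose by 1.15 and 1.02 on the log2 scale, and Col3a1 did not pass the test (edgeR log2 fold change 0.43, adjusted p = 0.179). Lox, which cross-links collagen, averaged 154 ± 28.5 CPM in UIRI+Nx d7 and 68.1 ± 10.9 CPM in UIRI d3 (edgeR log2 fold change 1.17 ± 0.15 SE, adjusted p = 7.78e-05). Mmp7, a matrix protease made by injured tubule cells, had 24.2, 27.2, 35.6 and 54.5 CPM in UIRI+Nx d7, 16.3 to 88.2 (median 26.9) CPM in UIRI d7 and 1.88 to 6.16 (median 4.16) CPM in UIRI d3 (edgeR log2 fold change 3.11 ± 0.42 SE, adjusted p = 0.000116). Tnc, Fbn1 and Fn1, the matrix glycoproteins tenascin-C, fibrillin-1 and fibronectin, rose by 0.98, 0.83 and 0.76.

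Genes that mark the fibroblasts themselves did not rise as a group. Of 21 fibroblast, pericyte and myofibroblast genes 2 fell and 1 rose, against 3.04% and 2.97% of all genes. The median log2 fold change of the list was -0.10. Acta2, smooth muscle actin, averaged 281 ± 15.4 CPM in UIRI+Nx d7 and 299.9 ± 63.2 CPM in UIRI d3 (edgeR log2 fold change -0.10, adjusted p = 0.763), and Pdgfrb, the receptor of pericytes, 35.9 ± 9.19 CPM in UIRI+Nx d7 and 45.5 ± 10.1 CPM in UIRI d3 (edgeR log2 fold change -0.35, adjusted p = 0.381). S100a4, a calcium-binding protein of fibroblasts and leukocytes, had 31.4, 24.5, 31 and 35.7 CPM in UIRI+Nx d7 and 86.6 to 121 (median 102) CPM in UIRI d3 (edgeR log2 fold change -1.75 ± 0.19 SE, adjusted p = 1.22e-05), and Dpt, dermatopontin, fell by 1.25. Meg3, a long noncoding RNA, was the gene that rose, by 1.04, or by 0.57 without UIRI+Nx d7 replicate 2. That call was lost without UIRI+Nx d7 replicate 2 or UIRI d3 replicate 1, 2 or 5 (edgeR adjusted p 0.0562 to 0.247). Of 25 tested genes of TGF-beta signalling 5 rose and none fell, against 2.97% and 3.04% of all genes. Ltbp2, a binding protein of the family's latent complexes, had 24.6, 29, 20.8 and 28.2 CPM in UIRI+Nx d7 and 4.46 to 12.2 (median 6.04) CPM in UIRI d3 (edgeR log2 fold change 1.81 ± 0.23 SE, adjusted p = 7.78e-05). Grem1, an antagonist of bone morphogenetic proteins, was low throughout, at 3.22, 2.04, 1.18 and 2.5 CPM in UIRI+Nx d7 and 0 to 0.498 (median 0.203) CPM in UIRI d3 (edgeR log2 fold change 3.20 ± 0.49 SE, adjusted p = 0.00041). Inhba, the activin A subunit, rose by 1.78, or by 1.18 without UIRI+Nx d7 replicate 4, the ligand Tgfb2 rose by 0.87, and the target Id1 by 0.94. Tgfb1 did not pass the test (edgeR log2 fold change 0.20, adjusted p = 0.637).

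**Figure D3:**
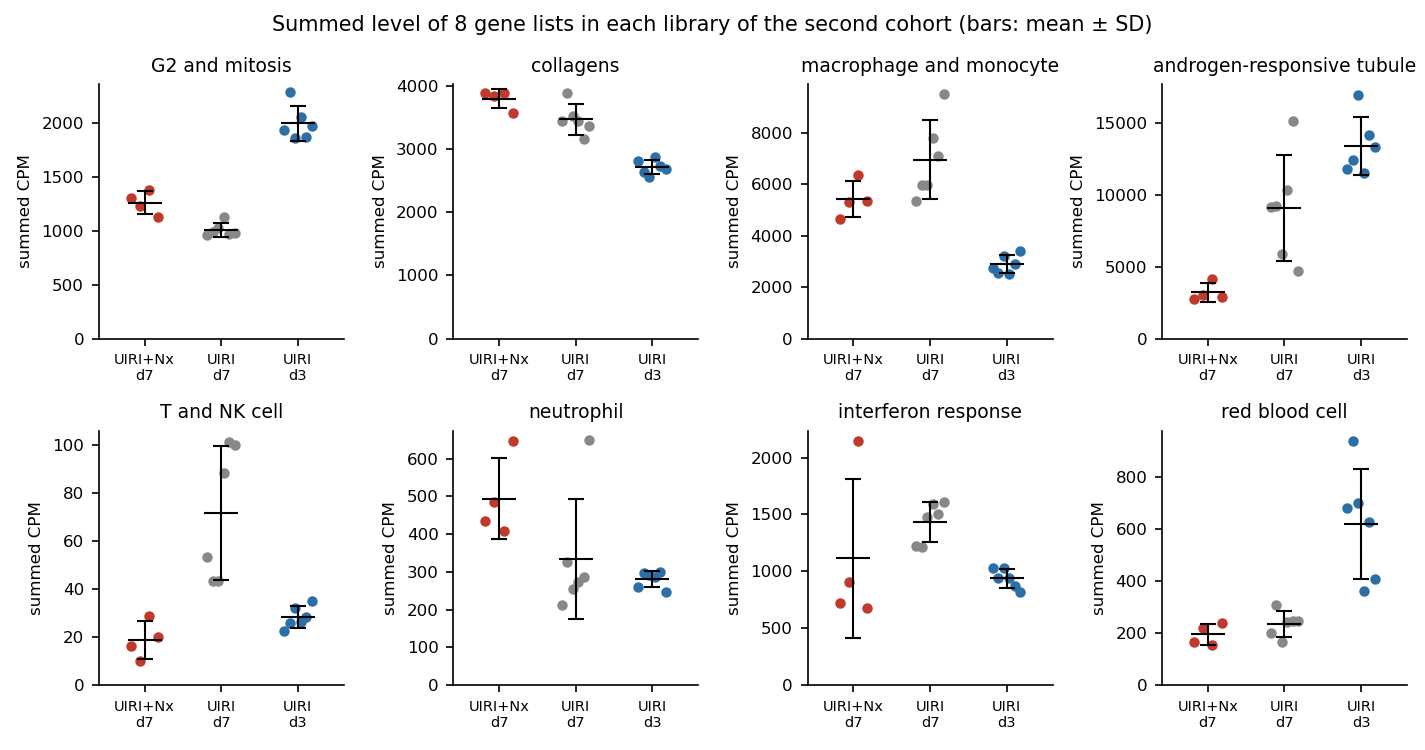
Summed CPM of the tested members of 8 gene lists in every library of the second cohort; points are libraries and bars the mean ± SD (n = 4 UIRI+Nx d7, 6 UIRI d7, 6 UIRI d3). UIRI+Nx d7 stands apart from UIRI d3 for mitosis, collagens, macrophages and androgen-responsive genes, and its replicate 3 alone is high for interferon response (2147 CPM).

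Macrophage genes were higher in UIRI+Nx d7 than in UIRI d3. Of 31 genes 10 rose and 1 fell (median log2 fold change 0.39), against 2.97% and 3.04% of all genes. Within positions 1 to 10 the counts were 6 and 0. The list summed to 4644 to 6351 CPM in UIRI+Nx d7, 5356 to 9535 CPM in UIRI d7 and 2519 to 3405 CPM in UIRI d3. Against UIRI d7, 9 of the 31 were lower in UIRI+Nx d7 and none higher (median -0.48), where 2.66% and 2.58% of all genes were. The genes that rose furthest against UIRI d3 are known from lipid-laden and phagocytic cells. Gpnmb (ENSMUSG00000029816), a lysosomal membrane glycoprotein, had 147, 106, 76.5 and 104 CPM in UIRI+Nx d7, 54.2 to 97.3 (median 80.5) CPM in UIRI d7 and 19.2 to 34.7 (median 27.8) CPM in UIRI d3 (edgeR log2 fold change 1.98 ± 0.19 SE, adjusted p = 1.83e-06). Apoe, the apolipoprotein, had 1555, 1831, 1705 and 1165 CPM in UIRI+Nx d7 and 381 to 599.7 (median 482) CPM in UIRI d3 (edgeR log2 fold change 1.71 ± 0.17 SE, adjusted p = 5.15e-06). Lyz2, lysozyme, and Ctss, cathepsin S, rose by 1.25 and 1.01 on the log2 scale. Adgre1, which encodes the common macrophage marker F4/80, did not pass the test (edgeR log2 fold change -0.06, adjusted p = 0.906). It averaged 14 ± 4.06 CPM in UIRI+Nx d7, 24.9 ± 5.05 CPM in UIRI d7 and 14.5 ± 2.1 CPM in UIRI d3. Ccr2, the receptor that brings monocytes from the blood, was the gene that fell, with 15.6, 8.42, 12.5 and 10.4 CPM in UIRI+Nx d7 and 16.6 to 37 (median 29.1) CPM in UIRI d3 (edgeR log2 fold change -1.24 ± 0.23 SE, adjusted p = 0.00212). Its call was lost within positions 1 to 10 (edgeR adjusted p = 0.107).

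A second list held genes of alternatively activated and scavenging macrophages. Of 16 tested genes 7 rose and 2 fell (median log2 fold change 0.75), against 2.97% and 3.04% of all genes. Cd163, the receptor for hemoglobin bound to haptoglobin, had 13.2, 30.6, 11.3 and 37.8 CPM in UIRI+Nx d7, 8.9 to 17.6 (median 12.3) CPM in UIRI d7 and 2.51 to 8.22 (median 3.31) CPM in UIRI d3 (edgeR log2 fold change 2.46 ± 0.35 SE, adjusted p = 0.000206). Lyve1, which binds hyaluronan on lymphatic endothelium and on a subset of macrophages, had 5.92, 12.7, 1.92 and 5.86 CPM in UIRI+Nx d7, 0 to 1.02 (median 0.348) CPM in UIRI d7 and 0.498 to 1.48 (median 0.99) CPM in UIRI d3 (edgeR log2 fold change 2.74 ± 0.54 SE, adjusted p = 0.00375). UIRI+Nx d7 was above both other groups in all 4 libraries for Lyve1, whereas for Cd163 it overlapped UIRI d7. Fcna, the lectin ficolin A, had 4.88, 19.8, 6.87 and 20.0 CPM in UIRI+Nx d7 and 1.19 to 3.28 (median 2.03) CPM in UIRI d3 (edgeR log2 fold change 2.62 ± 0.39 SE, adjusted p = 0.00031). Ccl8, a chemokine, and Mmp12, the macrophage elastase, rose by 2.76 and 3.60 (edgeR adjusted p = 0.0001 and 6.4e-05). Fcna and Mmp12 are not in the list and were named for their fold change. Mgl2, a galactose-binding lectin of dendritic cells and some macrophages, fell, with 4.57, 3.67, 8.21 and 5.61 CPM in UIRI+Nx d7, 18.3 to 30.9 (median 25.7) CPM in UIRI d7 and 9 to 22 (median 16.8) CPM in UIRI d3 (edgeR log2 fold change -1.62 ± 0.25 SE, adjusted p = 0.000507). Its relative Clec10a fell by 0.82. That call was lost without UIRI+Nx d7 replicate 2 (edgeR adjusted p = 0.073).

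Lymphocyte transcripts were scarce in every library. The 14 tested T and NK cell genes summed to 9.82 to 28.68 CPM in UIRI+Nx d7 and 22.51 to 34.93 CPM in UIRI d3. The receptor genes Trac, Trbc2 and Cd3d were lower in UIRI+Nx d7 (log2 fold changes -1.56, -2.14 and -2.08) and the cytokine receptor Il7r higher (1.29). The call of Trac was lost without UIRI+Nx d7 replicate 2 (edgeR adjusted p = 0.0504), that of Trbc2 without UIRI+Nx d7 replicate 2 (edgeR adjusted p = 0.0597), that of Cd3d without UIRI+Nx d7 replicate 2 (edgeR adjusted p = 0.115), and that of Il7r without UIRI+Nx d7 replicate 1, 2, 3 or 4 or UIRI d3 replicate 1, 2, 3, 4 or 5 (edgeR adjusted p 0.0564 to 0.177). Trbc2 stood at -3.21 without UIRI+Nx d7 replicate 3. Against UIRI d7, which held 43.33 to 101.3 CPM, 7 of the 14 were lower and none higher, where 2.66% and 2.58% of all genes were. Of 10 tested neutrophil genes 3 rose, against 2.97% of all genes, or 1 with the split as a covariate or within positions 1 to 10. The 3 were Lcn2, the receptor Trem1 (1.26) and the granule protein Ngp (2.14, or 1.31 without UIRI+Nx d7 replicate 3). The call of Trem1 was lost without UIRI+Nx d7 replicate 1 or 4 or UIRI d3 replicate 1, 2, 3, 5 or 6 (edgeR adjusted p 0.0507 to 0.132) and that of Ngp without UIRI+Nx d7 replicate 3 or UIRI d3 replicate 1, 3, 5 or 6 (edgeR adjusted p 0.0532 to 0.22). None of 30 interferon response genes passed the edgeR test, against 6.02% of all genes (7 at an unadjusted p under 0.05, none in DESeq2). Their summed level was 722, 906, 2147 and 680.3 CPM in UIRI+Nx d7, against 821.1 to 1027 CPM in UIRI d3, with replicate 3 above all other libraries of the cohort. Their median log2 fold change was 0.19, and -0.24 without that library. The same library held the highest Vcam1, Ccl8 and Ngp of its group, and the part of its interferon genes in those values was not tested.

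Targets of NRF2, the transcription factor that answers oxidative and electrophilic stress, were partly higher. Of 27 tested targets 8 rose and none fell (median log2 fold change 0.19), against 2.97% and 3.04% of all genes. When any single library was left out, 7 to 10 rose. Nqo1 (ENSMUSG00000003849), a quinone reductase, had 41.6, 28.2, 36.7 and 31.8 CPM in UIRI+Nx d7, 9.92 to 20.2 (median 10.8) CPM in UIRI d7 and 10.1 to 23.4 (median 19.7) CPM in UIRI d3 (edgeR log2 fold change 0.88 ± 0.22 SE, adjusted p = 0.0168). All 4 UIRI+Nx d7 libraries lay above both other groups, but the call against UIRI d3 was lost with the sample-sheet split as a covariate and within positions 1 to 10. The glutathione transferases Gstm1, Gsta2 and Gsta4 rose by 1.15, 1.12 and 1.30 on the log2 scale and the carbonyl reductases Cbr1 and Cbr3 by 1.19 and 1.89. Gstm1 stood at 257, 354, 222 and 304 CPM in UIRI+Nx d7 and at 113 to 144 (median 126) CPM in UIRI d3 (edgeR log2 fold change 1.15 ± 0.17 SE, adjusted p = 0.000316). The antioxidant response element TGACNNNGC, on either strand, was in 42.9% of 21 matched targets and in none of the 7 called and matched ones, against 14.0% of all promoters' genes, which says only that these letters are not in those windows.

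Red blood cell genes were lower in UIRI+Nx d7. Of 8 tested genes 5 fell, against 3.04% of all genes. They were the 4 globin genes and Alas2, the enzyme that starts heme synthesis in red cell precursors. Hbb-bs, adult beta globin, had 29, 23.3, 4.58 and 43.4 CPM in UIRI+Nx d7, 43 to 100.5 (median 58.4) CPM in UIRI d7 and 109.7 to 463 (median 282) CPM in UIRI d3 (edgeR log2 fold change -3.44 ± 0.49 SE, adjusted p = 0.000206). Alas2 had 0.415, 0.918, 0.0739 and 0.499 CPM in UIRI+Nx d7 and 2.27 to 13.3 (median 7.11) CPM in UIRI d3 (edgeR log2 fold change -3.78 ± 0.54 SE, adjusted p = 0.000206). Hba-a1 and Hba-a2, which are nearly identical copies and cannot be told apart with certainty, fell by 3.37 and 3.65, and Hbb-bt, a close relative of Hbb-bs, by 3.82 on the log2 scale. Genes of urothelium, adipocytes, adrenal cortex, skeletal muscle and liver were few, with 9, 4, 3, 3 and 3 tested, and edgeR called none. Unadjusted p was under 0.05 for 2, 4, 1, 0 and 1 of them, and DESeq2 called 1 adipocyte gene. The adipocyte sum reached 294.7 CPM in UIRI d3 replicate 1, against 20.99 to 49.09 CPM in UIRI+Nx d7 and 39.74 to 86.28 CPM in the other UIRI d3 libraries.

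Setting UIRI+Nx d7 against UIRI d7 asks how the same kidneys differed from injured kidneys of the same day. In the same fit 401 genes were higher (2.58%) and 413 lower (2.66%) in UIRI+Nx d7. The sample-sheet split was not run as a covariate for this comparison. This comparison shares the UIRI+Nx d7 libraries with the main one, so the values are given side by side and no overlap is drawn. Calb1 was higher by 3.54 against UIRI d7 and 3.03 against UIRI d3 on the log2 scale, Slc38a3 by 2.75 and 3.57, and Lyve1 by 3.89 and 2.74. Muc13, a membrane mucin, was higher by 4.33 and 3.48, with 5.08, 5.87, 1.77 and 8.73 CPM in UIRI+Nx d7 and at most 1.12 CPM in any UIRI d3 library (edgeR adjusted p = 0.000193 and 0.000408). Kcnip2, a modulator of potassium channels, was higher by 2.34 and 2.31, and Fam25c by 2.71 and 2.25. On the lower side Dnase1 was at -3.26 and -3.44, Slc7a13 at -3.67 and -3.61, Cyp2d12 at -3.37 and -3.91, Hsd3b2 at -2.75 and -3.63, and Slc22a22 at -2.60 and -3.37. These genes were picked for passing the edgeR test in both comparisons in the same direction, without overlap with either group. That they pass both is therefore no finding. By contrast Top2a, Umod, Col12a1, Apoe and Gpnmb, which passed it against UIRI d3, did not pass it against UIRI d7 (edgeR adjusted p = 0.233, 0.256, 0.0722, 0.45 and 0.168).

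The first cohort gave the same comparison in other mice, 6 UIRI+Nx d7 against 6 UIRI d3 libraries, fitted apart and counted on another genome build. There 324 genes were higher (2.06%) and 481 lower (3.06%) of 15701 tested. Of the 15263 genes tested in both cohorts, 925 were called in the second and 799 in the first, and 323 were called in the same direction in both, 143 higher and 180 lower, which is 34.9% of the second cohort's calls and 40.4% of the first's. No gene was called in opposite directions, and 846 of the 925 (91.5%) had the same sign in the first cohort. Calb1 was higher by 3.03 in the second cohort and 3.33 in the first, Slc38a3 by 3.57 and 2.88, Col12a1 by 2.38 and 2.53, Cd163 by 2.46 and 3.37, and Nqo1 by 0.88 and 1.91 on the log2 scale. Dnase1 was lower by the log2 fold changes -3.44 and -3.96, Kap by -2.29 and -2.91, Havcr1 by -1.85 and -2.15, Ube2c by -1.39 and -1.87, and Top2a by -1.02 and -2.12. All of these passed the test in both cohorts. In the first cohort 45 of 59 genes of G2 and mitosis and 24 of 46 of S phase were lower and none higher. Tubule lists were further from the second cohort. Of 52 proximal tubule transporters and receptors 3 were higher and 2 lower in the first cohort (median -0.01), where the second had 2 and 13 of 53 (median -0.29). Androgen-responsive genes had 4 of 15 lower in the first (median -0.35), where the second had 8 (median -1.21), and the thick ascending limb had 3 of 16 higher and none lower, where the second had 3 and 5. Enzymes and secreted proteins of the proximal tubule had 6 higher and 8 lower of 47, where the second had 5 and 19. These list counts were not tested against each other.

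Some of the second cohort's larger differences were not called in the first. Slc7a13 stood at -3.61 in the second cohort and -1.58 in the first (edgeR adjusted p = 0.211 there), Saa3, an acute phase protein, at 2.94 and -1.65 (adjusted p = 0.395), Fam25c at 2.25 and 0.08 (adjusted p = 0.96), and Sox9 at 0.86 and -0.15 (adjusted p = 0.809). For the 8 red blood cell genes the first cohort had no call and a median of 0.28, against -3.41 in the second. Of the 10 neutrophil genes none was higher and 3 were lower in the first cohort (median -1.92), against 3 higher and none lower in the second (median 0.54). Whether single genes differ between cohorts was tested as an interaction over 16606 genes of a joint fit. No gene passed it in edgeR (0%), with 1115 at an unadjusted p under 0.05. DESeq2 called 2 genes, Stfa2 and D630011A20Rik, with 1409 at an unadjusted p under 0.05. Its log2 difference between cohorts was 42.81 for Stfa2, too large to be read as a fold change, and 1.67 for D630011A20Rik. The interaction had an edgeR adjusted p of 0.736 for Slc7a13, 0.444 for Saa3 and 0.511 for Hbb-bs.

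**Figure D4:**
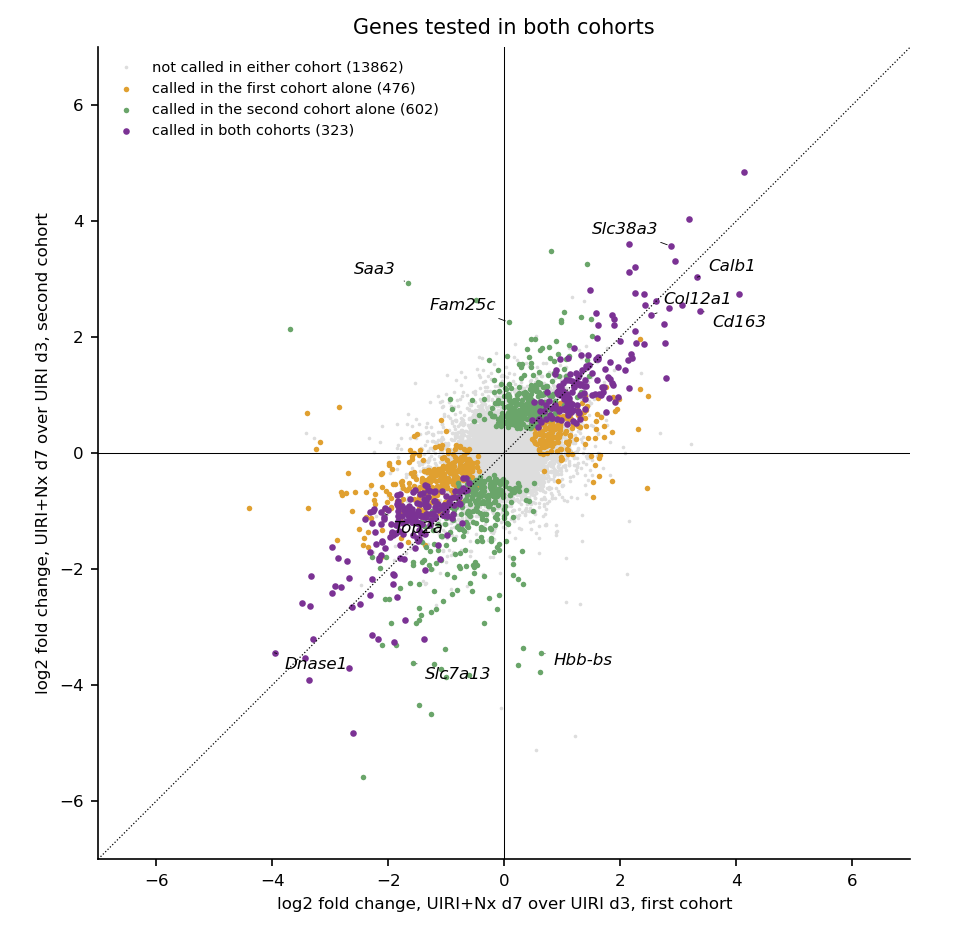
Log2 fold change of UIRI+Nx d7 over UIRI d3 in the second cohort (vertical axis) and the first (horizontal axis) for 15263 genes tested in both; colours mark in which cohort a gene passed the edgeR test at adjusted p under 0.05 and the dotted line marks equal values. The 323 genes called in both cohorts lie in the lower left and upper right corners of the plot, and Hbb-bs and Saa3 have opposite signs in the cohorts.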

How the data were processed

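The deposited table gives whole-number counts per gene with no normalization, for 48795 genes and 41 libraries. Per the labels' protocols, a column kit isolated RNA from frozen pole sections, and the QuantSeq FWD kit, which reads 3′ ends, was given 500 ng of it per library. Per the submitters' processing notes, the second cohort was aligned with STAR 2.7.11b to GRCm39, and the first was processed with Trimmomatic, STAR and HTSeq 0.6.1 on GRCm38 (mm10). For the second cohort the counter, annotation and strand setting were not given in the sources used here, and overlapping and antisense genes and near-identical copies may share reads. Reads of 3′ ends give no level per transcript length, and levels are compared only within a gene.

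Symbols were matched to 48349 of the gene identifiers, and 446 had none. The 16 libraries of the second cohort's 3 groups entered 1 fit in edgeR 4.0.16 (R 4.3.3) by its quasi-likelihood method, with TMM scaling, filterByExpr, and Benjamini-Hochberg adjustment over all 15543 genes at a threshold of 0.05. A log2 fold change divided by the square root of its F statistic gave the SE. The first cohort was fitted the same way on its own, and the interaction between cohorts in a joint fit. The alternatives were DESeq2 1.42.0, other scalings and filters, a fit of the 2 groups alone, the replicate number as a block, the sample-sheet split as a covariate or within positions 1 to 10, an adjusted p under 0.01, a test against a 1.5-fold change, and leaving out each library. Library measures were compared with exact permutation tests after thinning to 5387275 counts for genes detected. On simulated counts for 15290 genes the fit recovered 76 of 100 genes changed 2-fold and 100 of 100 changed 4-fold, with 5 false calls. The changed genes were drawn from those with a mean of at least 5 CPM, and no sample-sheet effect was simulated.

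The labels do not say that replicates came from separate animals, so p-values measure the spread between these libraries, which may be technical. No pair of libraries differed by less than sampling noise. Genes are named by a rule. It takes per direction the 12 called genes with the largest log2 fold change that reach 5 CPM in a group and do not overlap. Left out there are genes without a symbol, Gm, Rik and accession-type symbols, immunoglobulin and T cell receptor segments, and mt-, Rpl, Rps and histone genes. The rule also takes up to 4 members of each of 52 gene lists by adjusted p, and a set of key genes. Last, with the same exclusions, it takes per direction 6 genes called in the same direction against both UIRI d3 and UIRI d7, without overlap with either group. The comparison, the lists and the key genes were chosen with earlier results of these data known. Promoter sequences are RefSeq's on GRCm38.p6. A column with no group in its label entered no comparison. One gene that met the rule for a call is not reported here.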

Additional observations from a re-analysis of the deposited data

Results flagged for a closer look

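Within the 4 UIRI+Nx d7 or the 6 UIRI d3 libraries, the highest or lowest library stood apart from the others by Dixon's test for 15 of 274 sets of values examined, and chance flags about 1 in 20 sets. In UIRI+Nx d7 these were Cbr3 at 49.3 CPM in replicate 1, Hnf4a at 102.1 CPM in replicate 1, Hba-a2 at 0.591 CPM in replicate 3, Ngp at 13.1 CPM in replicate 3, and S100g at 1047 CPM in replicate 4. In UIRI d3 they were Acta2 at 423 CPM in replicate 1, Cyp4a14 at 129.7 CPM and Ptger3 at 28.8 CPM in replicate 2, Hnf4a at 167 CPM, Kng2 at 121 CPM, Pdgfrb at 65.0 CPM and Slc8a1 at 2.11 CPM in replicate 4, and Cfi at 7.36 CPM, Cldn10 at 84.8 CPM and Egf at 16.2 CPM in replicate 6. A column without a group in its label, left out of every comparison, held 12446693 counts over all genes.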

How the results depend on the processing

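All 124 called genes given values kept their direction under every alternative run, and 92 kept their call whichever single library was left out. Leaving out 1 library gave 270 to 612 genes higher and 284 to 562 lower between UIRI+Nx d7 and UIRI d3, 328 to 898 genes between UIRI+Nx d7 and UIRI d7 (fewest without UIRI+Nx d7 replicate 2), and 524 to 914 in the first cohort (fewest without UIRI+Nx d7 replicates 4 or 3). Within sample-sheet positions 1 to 10 the counts were 153 higher and 186 lower, at an adjusted p under 0.01 they were 207 and 213, and against a 1.5-fold change 74 and 95. With a replicate block 109 genes were higher and 124 lower against UIRI d3, and 506, in place of 814, differed between UIRI+Nx d7 and UIRI d7. The labels give equal numbers no shared source, and deviations from the group means correlated between equal numbers at 0.0894, -0.192, -0.133 and -0.126 for UIRI+Nx d7 with UIRI d3, and at 0.123, 0.0923, 0.168 and 0.219 with UIRI d7, where equal numbers also share the sample-sheet block. Neither set has every correlation over 0.1, so the numbers were not taken as a pairing. DESeq2 called 2 genes in the interaction, where edgeR called none. Other scalings, filters, the sheet split as a covariate, the 2 groups fitted alone and DESeq2 kept the counts of the main comparison within 1.5 times (358 to 658 higher, 369 to 676 lower). The hemoglobin difference kept its direction but not its adjusted call with any library left out, since fewer samples raise the smallest p. Of simulated 2-fold changes 76 of 100 were recovered at this depth and group size, and smaller changes were not simulated. Why the counts moved was not tested.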

Other observations

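Acute phase genes were partly higher in UIRI+Nx d7. Of 22 tested genes of complement and the acute phase 4 rose and 1 fell, against 2.97% and 3.04% of all genes. Saa3, a serum amyloid A protein made by macrophages and epithelium, had 17.2, 15.2, 3.99 and 20.8 CPM in UIRI+Nx d7, 1.2 to 11.2 (median 2.52) CPM in UIRI d7 and 0.927 to 3.91 (median 1.46) CPM in UIRI d3 (edgeR log2 fold change 2.94 ± 0.52 SE, adjusted p = 0.00163). The lowest UIRI+Nx d7 library stood just above the highest UIRI d3 library. Serpina3n, a protease inhibitor, had 9.03, 15.3, 6.58 and 21.2 CPM in UIRI+Nx d7 and 2.86 to 6.44 (median 4.34) CPM in UIRI d3 (edgeR log2 fold change 1.49 ± 0.33 SE, adjusted p = 0.00956), a call lost without UIRI+Nx d7 replicate 4 (edgeR adjusted p = 0.0602). Lbp, which presents endotoxin to its receptors, rose by 0.70 on the log2 scale, and Cfi, a complement protease, fell by 0.87. The call of Lbp was lost without UIRI+Nx d7 replicate 3 (edgeR adjusted p = 0.0617) and that of Cfi without UIRI+Nx d7 replicate 2 or 4 or UIRI d3 replicate 1, 2, 3, 4 or 5 (edgeR adjusted p 0.0693 to 0.155).

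Immediate early and p53 genes held 1 call per list, near the 6.02% of all genes called. Fosl1, a subunit of AP-1, was the only one of 21 tested immediate early and heat shock genes to pass the test, with 0.311, 2.39, 0.37 and 2.99 CPM in UIRI+Nx d7 and 5.09 to 13.9 (median 6.36) CPM in UIRI d3 (edgeR log2 fold change -2.46 ± 0.50 SE, adjusted p = 0.00523). Of 26 p53 targets and cell cycle inhibitors only the kinase Plk2 did, lower by 0.82 (edgeR adjusted p = 0.01). Iron handling had 3 of 15 tested genes higher and none lower, against 2.97% and 3.04% of all genes. Those higher included Cp and the transferrin gene Trf (1.02, edgeR adjusted p = 0.000662), and the third was the cystine transporter Slc7a11 (1.65, or 0.98 without UIRI+Nx d7 replicate 1). The call of Slc7a11 was lost without UIRI+Nx d7 replicate 1 or 4 or UIRI d3 replicate 1, 2, 5 or 6 (edgeR adjusted p 0.0525 to 0.175).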
